A study of Mus musculus with 6 samples.

Results

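Chemokines, interleukins and their receptors were read from 92 probe sets of 80 genes, out of 12488 probe sets on the array. Members were all probe sets that the platform annotation gives exactly 1 gene, with a symbol that starts with Ccl, Cxcl, Ccr, Cxcr or Il followed directly by a digit. A further 6 probe sets that join such a gene to others, among them those of Ccl21, Ccl19 and Ccl27, were left out. The glands were thoracic mammary glands taken at 16 weeks from virgin F1 mice of the CF-1/FVB cross. The mice were either transgenic and overexpressed luteinizing hormone (LH) or were wild type. Measured on Affymetrix arrays, 3 per genotype, were RNA pools of 3 mice each. Which promoter drives the transgene was not stated in the labels.

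Chemokines are small secreted proteins that direct the movement of leukocytes through receptors with 7 membrane spans, and they are sorted into CC and CXC families by the spacing of their first cysteines. Interleukins are cytokines that act through receptors built from several chains, of which 1 binds the ligand and another is often shared between ligands. In the mammary gland, macrophages and eosinophils drawn in by chemokines take part in duct growth, and interleukins such as IL-4, IL-13 and the relatives of IL-6 act on the epithelium through JAK kinases and STAT factors. LH acts on the ovary, where it raises the output of sex steroids.

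Among these genes, the IL-6 receptor chain gene Il6ra and the IL-4 receptor chain gene Il4ra were higher in the LH transgenic glands, 3.71-fold and 2.01-fold by the ratio of mean signals, and the chemokine gene Cxcl12 was lower, at 0.324 of its wild type signal. Most genes of the interleukins themselves, and most chemokine receptor genes, were too dim to be tested. The other called genes were Cxcl1, Cxcl14 and Il18bp, which were higher, and Ccl11, Il1r1, Il13ra1 and the shared chain Il6st, which were lower. For Il13ra1 the direction follows from the background rule given below. Values are MAS5 signals on a linear scale, with means ± SD over the 3 arrays of a group. Each log2 difference is the LH transgenic mean less the wild type mean, taken after 79.7, the 20th percentile of all values, was added to each signal, which understates the change of dim genes. A probe set is called where its Benjamini-Hochberg adjusted p from limma, over all 7453 tested probe sets, was under 0.05.

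For the regulatory context of 4 called genes, the RefSeq promoter windows (build GRCm38.p6) from 250 bases before to 50 bases after the annotated start are shown. Il6ra, Il4ra and Cxcl12 are shown for their large differences, and Cxcl1 because it is a textbook target of the transcription factor NF-kappaB. The windows lie at chr3:89913147-89913446 on the minus strand for Il6ra, chr7:125552021-125552320 on the plus strand for Il4ra, chr5:90890995-90891294 on the plus strand for Cxcl1 and chr6:117168285-117168584 on the plus strand for Cxcl12. Capitals mark matches on either strand to a loose form of the NF-kappaB motif, GGG and CC with any 5 bases between them, and longer runs of capitals are overlapping matches.
Il6ra: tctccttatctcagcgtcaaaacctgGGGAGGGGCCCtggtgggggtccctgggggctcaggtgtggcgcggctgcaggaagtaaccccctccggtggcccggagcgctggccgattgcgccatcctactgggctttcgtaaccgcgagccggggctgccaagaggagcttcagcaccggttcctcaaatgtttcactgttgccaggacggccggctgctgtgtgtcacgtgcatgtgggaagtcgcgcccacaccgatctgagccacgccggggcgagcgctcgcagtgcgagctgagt
Il4ra: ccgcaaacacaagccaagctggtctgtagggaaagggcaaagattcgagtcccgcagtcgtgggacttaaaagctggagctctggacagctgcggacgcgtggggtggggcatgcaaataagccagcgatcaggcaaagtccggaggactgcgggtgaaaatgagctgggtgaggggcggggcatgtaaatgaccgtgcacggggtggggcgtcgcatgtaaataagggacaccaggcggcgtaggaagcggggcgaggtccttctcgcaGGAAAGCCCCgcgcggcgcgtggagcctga
Cxcl1: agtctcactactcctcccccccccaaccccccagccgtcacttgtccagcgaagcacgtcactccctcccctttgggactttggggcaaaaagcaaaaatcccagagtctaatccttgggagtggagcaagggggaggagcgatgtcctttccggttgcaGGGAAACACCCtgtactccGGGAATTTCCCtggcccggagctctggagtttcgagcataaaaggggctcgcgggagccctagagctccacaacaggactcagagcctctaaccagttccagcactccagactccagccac
Cxcl12: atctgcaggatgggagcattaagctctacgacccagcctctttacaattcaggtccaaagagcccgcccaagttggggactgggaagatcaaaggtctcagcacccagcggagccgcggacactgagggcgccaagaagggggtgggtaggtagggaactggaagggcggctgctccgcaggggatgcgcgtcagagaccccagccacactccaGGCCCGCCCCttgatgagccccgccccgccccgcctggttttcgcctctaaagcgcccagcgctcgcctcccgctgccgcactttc

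The loose NF-kappaB motif was found in 50.8% of 32851 promoter windows of the same table and in 16 of 28 windows of the tested members. Of the 10 windows of called genes, 7 held it. In the Cxcl1 window, the match GGGAATTTCC begins 71 bases before the start. A STAT motif, TTCNNNGAA, was found in 8.3% of all windows and among the called genes in that of Cxcl14. RefSeq windows were found for 9 of the 10 called genes, and Ccl11 had none. These matches describe letters in the windows and are not measured binding sites.

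Above background was taken as a mean signal over the 6 arrays of at least 336.0, the 40th percentile over all probe sets that are not controls. By that rule 33 of the 92 member probe sets (35.9%), from 28 genes, were above background. As a guide to the threshold, genes of the Y chromosome, testis and retina had a median signal of 40.5 in these glands, with 13 of 15 below the threshold, but the testis gene Tnp1 had signals between 2180.1 and 3495.3. Brightness alone therefore does not show that a gene is expressed. Of the roles, 16 of 29 probe sets of interleukin receptors and binding proteins were above background, against 2 of 24 of interleukins and their antagonists, 2 of 13 of chemokine receptors, 7 of 15 of CC chemokines and 6 of 11 of CXC chemokines. The interleukins themselves were thus mostly dim, and only Il9 and Il16 passed. Of the 33 probe sets, 30 had both group means above the threshold. Probe set 162234_f_at of Cxcl12 and that of Il13ra1 passed only through the wild type arrays, and Il9 passed only through the LH transgenic arrays, so the direction of these 3 follows from the rule.

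**Figure D1:**
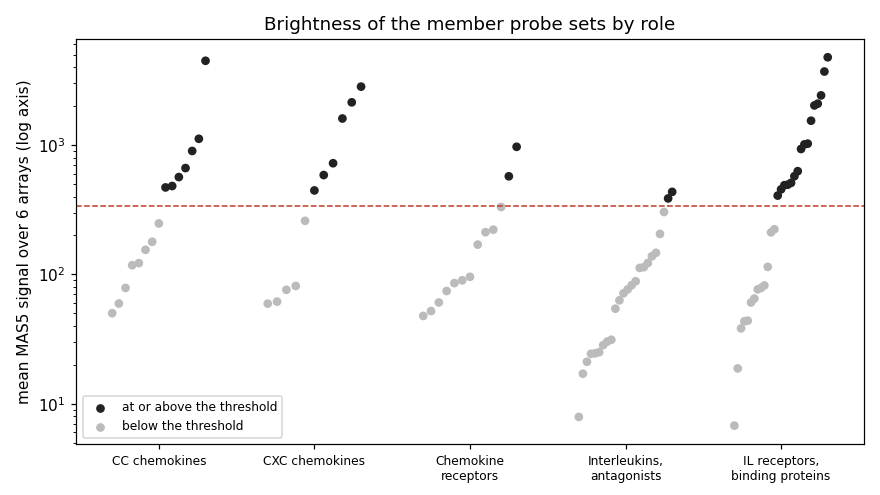
Mean MAS5 signal over the 6 arrays (log axis) for each of the 92 member probe sets, by role. Dark points are the 33 probe sets at or above the dashed threshold of 336.0, of which 16 belong to interleukin receptors and binding proteins and 2 to interleukins.

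The mean signals nearest the threshold were those of Il9 (386.8) and Il13ra1 (406.9) inside it, and of the chemokine receptor gene Cxcr3 (331.9) and the IL-1 receptor antagonist gene Il1rn (303.7) outside it. Cxcr3, the receptor for Cxcl9, had signals of 331.6, 473.4 and 308.9 on the LH transgenic arrays and 173.7, 308.2 and 395.8 on the wild type arrays. Il1rn, which blocks the IL-1 receptor, had 571.5, 301.6 and 301.3 in LH transgenic and 229.4, 52.4 and 365.9 in wild type glands. For both genes the groups overlapped. The highest single signals among the other dim members were 454.8 for Ccl1, 419.9 for Ccr6 and 357.2 for Il2rb, each on LH transgenic array 1.

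Of the 33 tested member probe sets, 11 were called, 5 higher and 6 lower, from 10 genes. That is 33.3% of the members tested, against 21.3% of all tested probe sets. In each direction the shares were 15.2% of members against 10.5% of all probe sets for higher calls, and 18.2% against 10.8% for lower calls. No test sets these shares apart from the background. Il13ra1 and Cxcl12 probe set 162234_f_at are among the lower calls, though their direction follows from the background rule. The median log2 difference was 0.04 for the 33 members and 0.02 for all tested probe sets. Groups did not overlap for 17 of the 33 (51.5%), against 40.4% of all tested probe sets, and these 17 include all 11 called. Il9, whose direction also follows from that rule, is among the 17 too. Of the 17, the LH transgenic arrays were higher for 9 and lower for 8, against 20.6% and 19.8% of all tested probe sets. An unadjusted p under 0.05 was reached by 13 members.

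Several values bear on the precision of these counts. Without wild type array 3, 4 of the 11 calls were kept, without wild type array 1, 6, and without LH transgenic array 2 or wild type array 2, 7 each. The 4 that were kept in each of these fits, and in the fits without LH transgenic array 1 or 3, were those of Il6ra, Il4ra and 2 Cxcl12 probe sets. Of these Cxcl12 probe sets, 162234_f_at passed the background rule only through the wild type arrays, so it had to be lower. The bacterial hybridisation controls had mean signals (geometric) of 5219 to 7147 on LH transgenic and 3359 to 4433 on wild type arrays. Dividing each array by them moved the median of all probe sets to -0.62, with 3.5% of calls higher against 49.2% above, and on that scale 1 member was called higher and 14 lower. No member was called with the B and T cell marker level of each array as a covariate, and 5 were with that of skeletal muscle, a tissue beneath the gland. That level, the mean log2 value of the 9 tested probe sets of 8 B and T cell markers, did not overlap between groups, at 9.764 to 9.915 in LH transgenic and 9.565 to 9.678 in wild type glands, and with this covariate the standard error of Il6ra was 0.37, against 0.21 without. Summed signals of the 22 measured B and T cell markers did overlap, at 9110.1 to 11028.1 in LH transgenic and 9155.4 to 11227.3 in wild type glands. Of the 8 tested 1 was called higher, and on the bacterial control scale 0 were higher and 3 lower. The summed signal of 18 skeletal muscle markers was 25883.4 to 104024.2 in LH transgenic and 112909.4 to 129724.5 in wild type glands, and 6 of 16 tested fell, or 13 without LH transgenic array 3, which had the highest sum of its group. In the fit of all 6 arrays 10.8% of all tested probe sets were called lower. The part of lymphoid cells or muscle in the member calls was not tested beyond these fits.

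**Figure D2:**
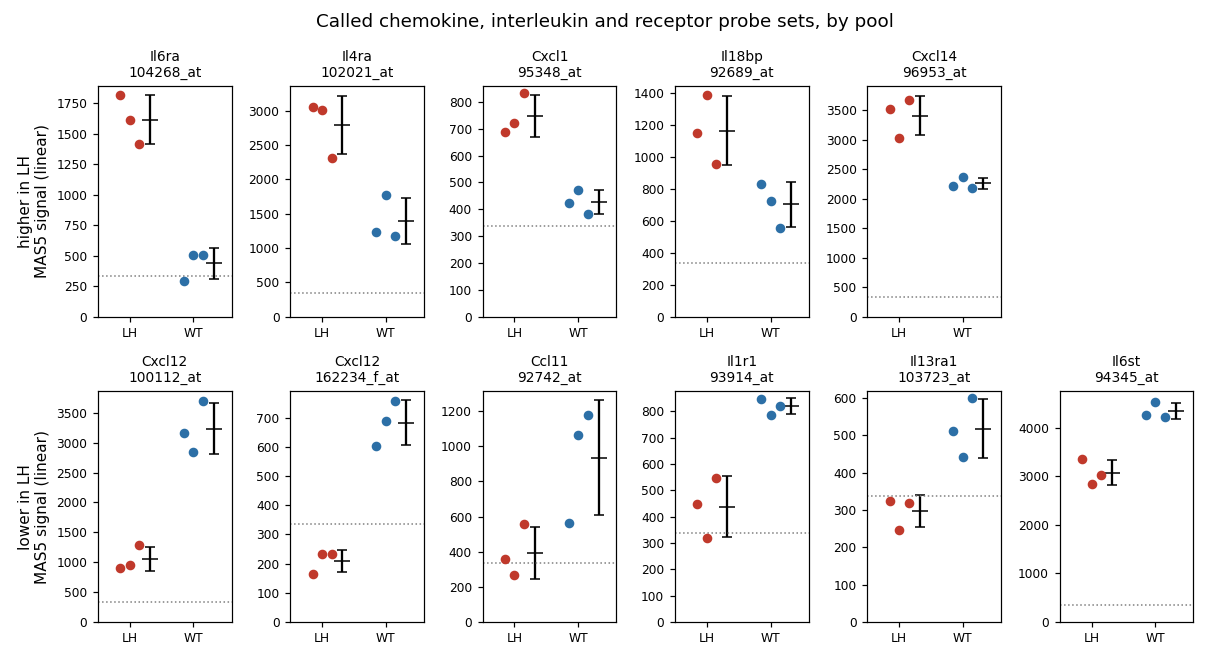
MAS5 signal (linear axes from 0) of the 11 called member probe sets in the 3 LH transgenic (LH, red) and 3 wild type (WT, blue) pools, with the mean and SD in black beside the points and the background threshold of 336.0 dotted. The pools of the groups do not overlap in any panel, and for Il13ra1 and Cxcl12 probe set 162234_f_at all LH transgenic pools lie below the threshold.

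Of the CC chemokines, 1 of 7 tested probe sets was called, and it was lower, where 21.3% of all tested probe sets were called. Ccl11, or eotaxin, which attracts eosinophils, had signals of 355.9, 266.5 and 555.6 in LH transgenic glands, against 563.7, 1066.3 and 1176.8 in wild type glands. The LH transgenic array 3 and the wild type array 1 nearly met, and the other arrays were well apart. The log2 difference was -1.09 (SE 0.30, adjusted p 0.0298), and it lay between -1.39 and -0.89 when an array was left out. The call was lost in 7 of 14 other settings, among them that without wild type array 3, where the adjusted p was 0.115. Ccr3, the eotaxin receptor carried by eosinophils, was below background on every array, with signals of 12.9, 76.4 and 25.0 in LH transgenic and 13.3, 13.7 and 145.2 in wild type glands.

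Markers of mast cells, another cell type of the connective tissue, were lower in the same comparison, where 10.8% of all tested probe sets were called lower. The list of NK cell, mast cell and eosinophil markers had 4 of 14 measured genes above background, of which Tpsb2, a mast cell tryptase (log2 -1.04), and Cma1, a mast cell chymase (-1.47), fell and the granzyme gene Gzmb rose by 1.13. On the bacterial control scale none of these 4 was called higher, Gzmb included, and 2 were lower. The summed signal of the list was 3001.9 to 4136.7 in LH transgenic and 4601.0 to 7226.3 in wild type glands. Their part in the Ccl11 difference was not tested.

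The other CC chemokines were not called. Ccl9, made by macrophages and other myeloid cells, had 5961.4, 6107.5 and 3973.6 in LH transgenic and 2836.9, 4156.4 and 3889.6 in wild type glands. LH transgenic array 3 fell within the wild type range. Its log2 difference was 0.54 (95% interval 0.09 to 1.0, adjusted p 0.0846), and it was called without LH transgenic array 3 (0.74, adjusted p 0.0177). Without wild type array 1 the Ccl9 difference was 0.38 (adjusted p 0.272). Ccl8, a monocyte chemoattractant, had 1508.1, 1083.3 and 1304.1 against 607.8, 1405.7 and 803.9 in wild type glands, with 0.50 (-0.09 to 1.09). It was called without wild type array 2 (0.81, adjusted p 0.0294), but differed by 0.255 without wild type array 1 (adjusted p 0.552). Ccl5, which attracts T cells and monocytes, differed by 0.50 (-0.13 to 1.14) and Ccl22, a ligand of Ccr4, by 0.55 (-0.13 to 1.22). The Ccl5 difference was 0.13 without wild type array 3, and that of Ccl22 was 0.20 without LH transgenic array 2.

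Ccl2, the main ligand of Ccr2 and an attractant of monocytes, had 518.6, 430.4 and 441.4 in LH transgenic and 470.2, 308.3 and 725.6 in wild type glands. The wild type arrays spanned the whole range, and the interval of the difference ran from -0.63 to 0.56. Ccl6 likewise differed by 0.04 (-0.50 to 0.57). The groups overlapped for these 6 uncalled CC chemokines. On the scale of the bacterial controls the differences of Ccl9, Ccl8, Ccl5, Ccl22 and Ccl6 lay below 0, at -0.14, -0.14, -0.12, -0.04 and -0.56. Of 14 tested macrophage markers 6 rose and 8 were not called, where 10.5% of all tested probe sets were called higher. On the bacterial control scale none of these markers was higher and 3 were lower. The summed signal of the 16 macrophage markers with a probe set was 87602.6 to 107202.0 in LH transgenic and 52813.0 to 71234.1 in wild type glands. Whether the level of these cells moves the chemokine values was not tested.

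Among the CXC chemokines, Cxcl12 was lower, Cxcl1 and Cxcl14 were higher, and Cxcl9 was not called. Cxcl12, or SDF-1, is made by stromal and endothelial cells and holds cells that carry Cxcr4. Its probe set 100112_at had signals of 902.7, 958.4 and 1281.9 in LH transgenic glands, against 3164.1, 2851.4 and 3690.9 in wild type glands. Every wild type array was well above every LH transgenic array. The means were 1047.7 ± 204.8 and 3235.5 ± 424.3, a log2 difference of -1.56 (SE 0.17, adjusted p 0.000497), rank 71 from the lowest of 7453 tested probe sets.

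Cxcl12 had 2 more probe sets above background. Probe set 162234_f_at had 164.3, 231.6 and 231.1 in LH transgenic and 602.2, 690.3 and 756.6 in wild type glands, with a log2 difference of -1.41 (adjusted p 0.00191). Its suffix marks probes that may be shared within a sequence family, and its LH transgenic signals lay below background. It passed the background rule only through the wild type arrays, so it had to be lower in LH transgenic glands and adds no support to probe set 100112_at. Probe set 160511_at had 1347.8, 815.9 and 1600.3 against 2175.5, 1914.4 and 1780.7 in wild type glands, with a difference of -0.65 (95% interval -1.15 to -0.16, adjusted p 0.0635). Its groups did not overlap, and it was called without LH transgenic array 3 (-0.84, adjusted p 0.0234). Without LH transgenic array 2 its difference was -0.39 (adjusted p 0.132). The direction of all 3 was the same after quantile normalization and on the bacterial control scale, where the differences were -2.22, -1.96 and -1.30 for 100112_at, 162234_f_at and 160511_at. With the B and T cell covariate, where none was called, 160511_at turned to 0.22 and the other two stayed below 0, at -1.23 and -1.55.

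Marker genes of stromal cell types fell in the same comparison, where 10.8% of all tested probe sets were called lower. Of 11 tested endothelial markers 9 fell, and the summed signal of the 13 measured was 18093.5 to 21053.6 in LH transgenic and 36925.5 to 44800.3 in wild type glands. Of 11 tested fibroblast markers 5 fell, among them Pdgfrb (-0.78) and Lum (-0.90), with sums of 84539.3 to 107370.1 in LH transgenic and 116911.3 to 156303.5 in wild type glands, and 2 fell in the fit without 1 array that left fewest. Of 11 adipocyte markers 9 fell, with sums of 81496.2 to 89111.4 and 170223.6 to 192533.3. No marker was at 0. Their part in the Cxcl12 difference was not tested, and in whole glands fewer cells of a type and less RNA per cell cannot be told apart.

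**Figure D3:**
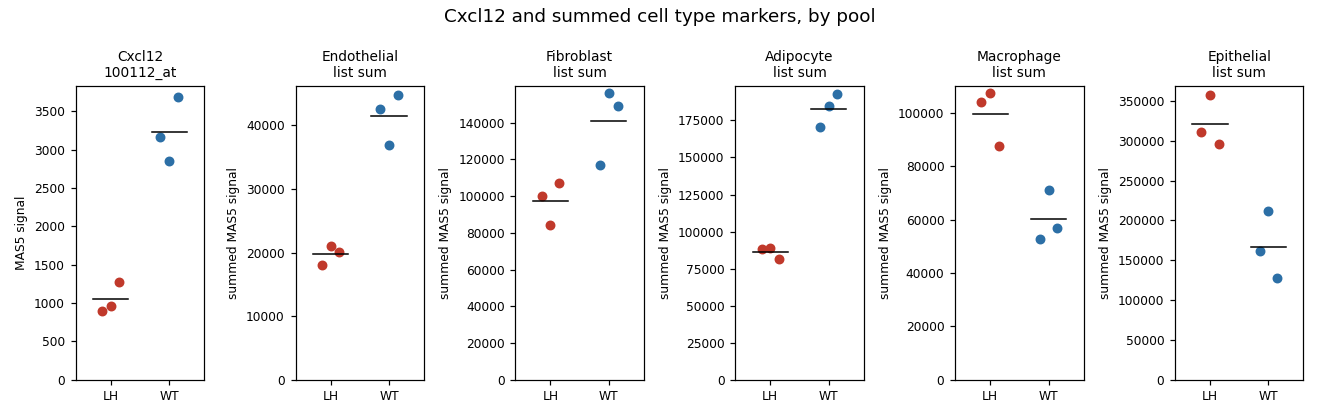
Signal of Cxcl12 probe set 100112_at and the summed signal of 5 cell type marker lists in the 3 LH transgenic (LH, red) and 3 wild type (WT, blue) pools, with group means as lines. Cxcl12 and the endothelial, fibroblast and adipocyte sums are lower in all LH transgenic pools, and the macrophage and epithelial sums are higher in them.

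Cxcl1, an attractant of neutrophils whose promoter window is printed above, had 686.6, 720.4 and 834.0 in LH transgenic glands, against 422.7, 471.8 and 383.4 in wild type glands. All LH transgenic values were above all wild type values, and by more than the spread within a group. The log2 difference was 0.71 (SE 0.17, adjusted p 0.0176). Its second probe set, 95349_g_at, was below background, with 280.0, 236.2 and 312.1 against 260.8, 266.9 and 201.3, and its groups overlapped. The receptor gene Cxcr2 was below background on every array, with a highest signal of 147.3. Of 7 tested neutrophil markers 1 rose, where 10.5% of all tested probe sets were called higher. It was S100a8 (1.07, but 0.47 with no call on the bacterial control scale). On that scale none of the 7 was higher and 2 were lower. The summed signals of that list overlapped, at 35930.2 to 68315.4 in LH transgenic and 20475.4 to 42002.1 in wild type glands.

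Cxcl14, a chemokine of epithelia and fibroblasts, had 3514.9, 3034.0 and 3670.0 in LH transgenic and 2209.8, 2372.9 and 2188.5 in wild type glands. The wild type arrays lay close together, and all LH transgenic arrays were above them. Its log2 difference was 0.57 (SE 0.13, adjusted p 0.0131), but -0.10 on the bacterial control scale. The calls of Cxcl1 and Cxcl14 were lost without wild type array 1 (adjusted p 0.052 and 0.0522) and without wild type array 3 (0.0646 and 0.0514), and on the bacterial control scale, where Cxcl1 differed by 0.11. Mammary epithelial markers, of which 12 of 14 were above background, rose in 5 of the 12 tested genes, where 10.5% of all tested probe sets were called higher. Among the 5 were Krt19 (0.52, but -0.16 on the bacterial control scale) and Elf5 (1.21). The list sums were 295606.0 to 356981.5 in LH transgenic and 127909.6 to 211436.3 in wild type glands. These sums weigh the brightest genes most, and the highest single signal was 114865.9. The list median was 0.40, and -0.29 on the bacterial control scale, where 3 were higher and 4 lower. Whether the epithelial share moves Cxcl14 was not tested.

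Cxcl9, induced by interferon gamma, had 404.3, 689.4 and 600.0 in LH transgenic and 1314.0, 502.3 and 833.1 in wild type glands. The groups overlapped, and the interval of the difference ran from -1.21 to 0.17. On the bacterial control scale it was called lower (-1.14, adjusted p 0.000388).

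The chemokine receptors above background were Cxcr4 and Ccr2, and neither was called. Cxcr4, the receptor of Cxcl12, had 829.6, 704.2 and 1358.3 in LH transgenic and 880.6, 1191.4 and 854.2 in wild type glands. The highest and the lowest of the 6 values were both from LH transgenic glands, and the difference was -0.05 (95% interval -0.58 to 0.48). Ccr2, carried by monocytes, had 577.3, 472.9 and 384.2 against 615.9, 595.9 and 795.6 in wild type glands. Its groups did not overlap, with a difference of -0.43 (-0.88 to 0.02, adjusted p 0.161).

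The interleukins above background were Il9 and Il16, and neither was called. Il9, a growth factor of T cells and mast cells, had 470.9, 473.9 and 421.2 in LH transgenic and 282.2, 361.1 and 311.5 in wild type glands, a difference of 0.43 (-0.01 to 0.87, adjusted p 0.15). Its groups did not overlap, and it lay near the threshold. Il16, an attractant of CD4+ cells, had 366.8, 398.5 and 400.5 against 372.1, 538.4 and 531.7, with overlap and an interval from -0.70 to 0.21.

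Among the dim interleukins the groups did not overlap for 6, Il1b, Il13 and Il12a with LH transgenic arrays higher, and Il18, Il5 and Il15 with them lower. Il18 and Il1b had the largest differences of these and are given in full, a choice made after their values were seen. Il18 had 42.0, 45.7 and 46.9 in LH transgenic and 139.0, 303.5 and 105.3 in wild type glands. Il1b, a secreted form of IL-1, had 183.4, 246.0 and 214.2 against 140.5, 70.2 and 26.3 in wild type glands. With no filter on dim probe sets neither was called, at differences of -1.0 (adjusted p 0.0526) and 0.95 (adjusted p 0.0695). In all, groups did not overlap for 9 of the 59 dim members (15.3%), against 17.9% of all 4969 dim probe sets, and the other 3 of the 9 were Ccr9 and Il5ra, higher, and Il9r, lower. None of the 9 was called with no filter in limma, with adjusted p of 0.0526 to 0.61.

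Of 16 tested probe sets of receptor chains and binding proteins, 3 were called higher and 3 lower, where 10.5% and 10.8% of all tested probe sets were. These counts are small, and the role is not shown to differ from the rest of the array. Il6ra encodes the chain that binds IL-6. It had signals of 1814.6, 1616.0 and 1417.4 in LH transgenic glands, against 289.7, 509.0 and 508.5 in wild type glands. The lowest LH transgenic value lay far above the highest wild type value. The means were 1616.0 ± 198.6 and 435.7 ± 126.5, a log2 difference of 1.74 (SE 0.21, adjusted p 0.000812), rank 51 from the highest of 7453 tested probe sets. It was also called on the bacterial control scale, at 1.13, and lay between 1.52 and 1.86 when an array was left out.

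Il6st encodes gp130, the signal chain shared by IL-6 and its relatives, and went the other way. Its probe set 94345_at had 3350.4, 2846.3 and 3019.4 in LH transgenic and 4258.0, 4533.1 and 4225.7 in wild type glands. The groups did not overlap, and the difference was -0.49 (SE 0.12, adjusted p 0.0205), a call lost without LH transgenic array 2 (adjusted p 0.0555) and without any wild type array (0.0574 to 0.0798). With the skeletal muscle covariate this call was lost too (-0.53, adjusted p 0.0788). A second probe set, 98349_at, had 617.2, 396.8 and 665.3 against 475.2, 799.3 and 493.8, with overlap and an interval from -0.62 to 0.50. Il6 itself, the ligand, was below background on every array, with a highest signal of 73.6.

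Il4ra encodes the chain that binds IL-4 and takes part in both IL-4 receptor types. Its signals were 3055.4, 3011.3 and 2302.9 in LH transgenic glands, against 1232.8, 1771.4 and 1167.7 in wild type glands. All LH transgenic values were above all wild type values. The log2 difference was 0.98 (SE 0.19, adjusted p 0.00621), and 0.32 without a call on the bacterial control scale (adjusted p 0.289). A second probe set, 161192_at, was below background with overlapping groups. The covariate for skeletal muscle ended the call, at 0.75 (SE 0.25, adjusted p 0.0944).

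Il13ra1 encodes the partner of Il4ra in the receptor that answers both IL-4 and IL-13. It had 323.9, 247.2 and 317.7 in LH transgenic and 510.5, 441.8 and 600.1 in wild type glands, a difference of -0.67 (SE 0.21, adjusted p 0.0469). The groups did not overlap, but the LH transgenic values were below background, and the call was lost in 10 of 14 other settings, including each fit without 1 array. The ligands Il4 and Il13 were below background on every array in all of their probe sets, with highest signals of 168.0 and 75.7.

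Il1r1, the receptor that passes on the IL-1 signal, had 448.3, 318.1 and 547.5 in LH transgenic and 847.7, 786.9 and 821.9 in wild type glands. The wild type values were close together, and all LH transgenic values were lower. Its difference was -0.82 (SE 0.20, adjusted p 0.0177), a call lost without wild type array 1 or 3 (adjusted p 0.0607 and 0.0602). The call was also lost with the skeletal muscle covariate (-0.56, adjusted p 0.214) and with that of B and T cells (-0.25, adjusted p 0.771). Il1r2, a decoy that binds IL-1 without a signal, was not called in either probe set, with differences of -0.10 (-0.57 to 0.37) and 0.10 (-0.42 to 0.61) and overlapping groups.

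Il18bp, a secreted protein that binds and blocks IL-18, had 1149.5, 1388.5 and 952.7 in LH transgenic and 831.2, 724.3 and 551.5 in wild type glands. The groups did not overlap, and the difference was 0.67 (SE 0.19, adjusted p 0.0366). The call was lost in 8 of 14 other settings, with 0.04 on the bacterial control scale and adjusted p values of 0.0737 to 0.128 without LH transgenic array 1 or 2 or wild type array 2 or 3. Il18r1, the binding chain of the IL-18 receptor, was not called, at 0.30 (-0.18 to 0.78), with overlapping groups.

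No other receptor chain was called. Il10rb, shared by IL-10 and its relatives, had 5306.6, 5403.3 and 4820.6 in LH transgenic and 4045.4, 4742.1 and 4336.5 in wild type glands, a difference of 0.24 (-0.04 to 0.52). Il15ra, which presents IL-15, differed by -0.09 (-0.43 to 0.24), and Il27ra, the partner of gp130 for IL-27, by 0.22 (-0.08 to 0.52). The IL-17 receptor chain gene Il17ra had differences of 0.10 (-0.24 to 0.44) and 0.01 (-0.31 to 0.33) in its probe sets. Il3ra, the IL-3 binding chain, differed by 0.41 (-0.04 to 0.87). Groups did not overlap for Il10rb, Il27ra and Il3ra, and on the bacterial control scale the differences of these 3 lay below 0, at -0.44, -0.45 and -0.18.

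**Figure D4:**
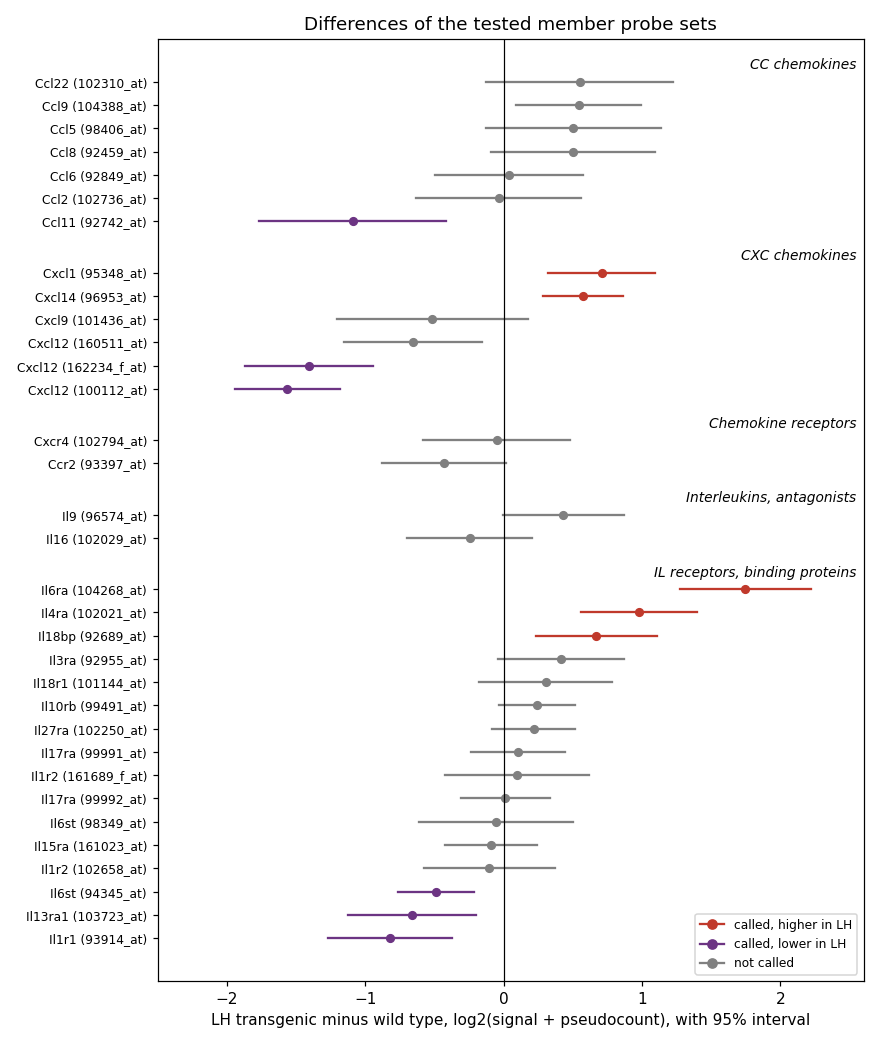
Log2 difference (LH transgenic minus wild type, points) with its 95% interval (lines) for the 33 tested member probe sets, ordered by role. Il6ra has the highest difference (1.74) and Cxcl12 probe set 100112_at the lowest (-1.56), and 22 intervals belong to probe sets that were not called.

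Genes of the pathways that these receptors feed were read from 2 lists. Of 15 tested genes of JAK-STAT signalling 4 rose and none fell, where 10.5% of all tested probe sets were called higher. The median difference was 0.17 against 0.02 for all probe sets, and on the bacterial control scale 1 was higher and 7 lower. The kinase gene Tyk2 had 826.5, 719.6 and 375.8 in LH transgenic and 118.3, 88.5 and 143.1 in wild type glands (1.82, adjusted p 0.00303). With a wild type mean of 116.6, Tyk2 passed the background rule only through the LH transgenic arrays, so its direction follows from the rule. Jak2 (0.63), Cish, an inhibitor induced by STAT5 (0.54), and Stat5a (0.41) rose as well, but on the bacterial control scale these 3 lay below 0, at -0.03, -0.13 and -0.28, and the list median was -0.47. Stat6, the factor of IL-4 signalling, differed by -0.22 and Stat3, the factor of IL-6 signalling, by 0.22, and neither was called. Leaving out 1 array gave 1 to 3 higher calls in this list. The call of Tyk2 was kept each time, that of Stat5a was lost each time, that of Jak2 was lost in all of these fits but that without LH transgenic array 2, and that of Cish was lost without wild type array 1 or 3.

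Of 17 tested genes of a list for the IL-1 receptor and NF-kappaB pathway, which also holds Casp1 and Bcl3, 3 rose and none fell. Of all tested probe sets 10.5% were called higher. On the bacterial control scale 0 were higher and 4 lower, with a list median of -0.30 there and 0.37 otherwise. Bcl3, a nuclear partner of NF-kappaB, had 3438.5, 3035.7 and 4115.0 in LH transgenic and 1642.5, 2161.4 and 1616.8 in wild type glands (0.94, adjusted p 0.00446, but 0.27 with no call on the bacterial control scale, adjusted p 0.367). The inhibitor gene Nfkbie (0.76) and Casp1, the protease that matures IL-1 beta and IL-18 (0.50), rose too, but on the bacterial control scale they differed by 0.15 and -0.14 and were not called. The Casp1 call was lost whichever array was left out, and that of Nfkbie without wild type array 3. Nfkbia (0.53), Rela (-0.31) and Myd88 (0.32) were not called.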

How the data were processed

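The deposited values are linear MAS5 intensities (signals), per the submitters' processing notes. Neither the notes nor the labels give a MAS5 version, and detection calls were not used here. The trimmed mean of each array lay at 1500.8 or 1500.9, and the median between 540.6 and 583.45, so the values were used as deposited. The labels state no pairing and no batch, and array numbers are only names. The pools within a genotype hold different mice.

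From these intensities, log2(signal + 79.7) was tested with limma (eBayes with a trend, two-sided, no covariates, Benjamini-Hochberg over 7453 probe sets). The 66 control probe sets were left out. Members were matched by annotated symbol, and all 92 gene identifiers were found in RefSeq. Members, lists and tests were chosen with earlier results of these data known. Named were all called or non-overlapping members above background, up to 4 others per role by mean signal, members near the threshold, up to 5 dim ones by highest signal, and called list genes. In lists, each gene was read from its brightest probe set by mean signal. Simulated data had the means and spread of the 7453 probe sets, independent noise, and 50 probe sets changed at each size. There 24% of 1.5-fold, 70% of 2-fold, 88% of 3-fold and 96% of 4-fold changes were recovered, and 9 of 148 calls were false. A smaller share was changed than the 21.3% called here, and no shift shared within an array was simulated, so the rates may differ on the real arrays. Alternatives were quantile normalization, bacterial control scaling (9 controls), a floor at 16.8 or 324.3 added in place of 79.7, no filter or one at 933.0, eBayes without a trend, marker covariates and leaving out each array. Software was R 4.3.3, limma 3.58.1, matplotlib 3.10.9, numpy 2.4.6, pandas 2.3.3 and Python 3.11.15.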

Additional observations from a re-analysis of the deposited data

How the results depend on the processing

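Quantile normalization, adding 324.3, and eBayes without a trend kept all 11 member calls. The floor at 16.8 kept 10, without Il13ra1, and no filter kept 8, without Ccl11, Il18bp and Il13ra1. With bacterial controls as the scale, 1 member was called higher and 14 lower, 7 of the 11 calls were kept, 140 of all probe sets were higher and 3859 lower, and 94 list genes were called against 57. There Cxcl14 turned to -0.10, and Il17ra probe set 99992_at to -0.64 with a call. With the stricter filter 3 members were higher and 2 lower, all 5 among the 11, since 14 members were tested. The B and T cell covariate left 0 members higher, 0 lower and 0 of the 11 calls, with 34 of all probe sets higher, 91 lower and 8 list genes called. The skeletal muscle covariate left 3 members higher and 2 lower, 5 of the 11 calls, 369 of all probe sets higher, 443 lower and 34 list genes. Leaving out 1 array gave 2 to 6 members higher and 2 to 6 lower, 4 to 10 calls kept, 443 to 740 of all probe sets higher and 505 to 895 lower, and 38 to 68 list genes. With the threshold at the 60th percentile 14 members were above background, and with it at the highest signal of the Y, testis and retina genes 3 were. No paired analysis was possible because the labels give no replicate numbers. Other causes of these changes were not tested. The number of arrays limits precision, and MAS5 scaling would hide a shift shared by most genes.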

Other observations

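Relatives of the members whose symbols start with other letters were also read. Of 6 tested chemokine-family genes outside those prefixes 2 fell and none rose, where 10.8% of all tested probe sets were called lower. Rarres2, or chemerin, an attractant made by fat cells and liver, had 5541.5, 5778.7 and 3898.5 in LH transgenic and 13397.8, 13142.9 and 17557.7 in wild type glands (log2 -1.53, adjusted p 0.000714). Cx3cl1, the membrane-bound chemokine fractalkine, had 1821.5, 1600.1 and 2461.1 against 2772.6, 2904.8 and 3203.3 (-0.59, adjusted p 0.0338), a call lost in each fit without 1 array except that without LH transgenic array 3. Ackr3, the scavenging receptor of Cxcl12, differed by -0.03 (adjusted p 0.948), and Cx3cr1, the receptor of Cx3cl1, by 0.32 (adjusted p 0.222), and neither was called.

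Of 24 tested genes of other cytokines and their receptors 1 rose and 1 fell, where 21.3% of all tested probe sets were called. On the bacterial control scale 1 was higher and 15 lower, and leaving out 1 array gave 0 to 4 lower. Tnfrsf11a, the RANK receptor of alveolar growth, had 1363.7, 1055.5 and 988.1 in LH transgenic and 275.0, 378.3 and 205.1 in wild type glands (1.75, adjusted p 0.000983, and 1.16 on the bacterial control scale). Its wild type mean of 286.1 lay below background. Only through the LH transgenic arrays did Tnfrsf11a pass the background rule, so its direction follows from the rule. Tnfrsf1a, the main TNF receptor, had 3064.7, 3259.2 and 3193.2 against 4493.0, 4530.4 and 4158.9 (-0.46, adjusted p 0.0218), a call lost without LH transgenic array 1 or wild type array 1 or 2.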
